A study of Drosophila melanogaster with 8 samples.

Results

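The gene expression of tgs1hypo fly testes was compared with that of testes labelled WT. Each genotype had 2 adult testis libraries, 4 of the 8 samples of the series, and the comparison covered the 11343 of 15612 listed genes whose mean over the 4 libraries was at least 1 FPKM, a fragment count scaled to transcript length and to library size. By their labels, the tgs1hypo libraries had the genotype bam>moi;tgs1hypo, in which a moi cDNA driven by bam does not rescue the hypomorph. The WT libraries had the genotype bam>tgs1;tgs1hypo, in which the same driver expresses a tgs1 cDNA that does. By these genotype labels both groups would carry the tgs1hypo alleles, which the study describes as moi CB0 over tgs1 15-11, and the bam driver, which is active in early germ cells of the testis. The study's own text speaks of these libraries as mutant and wild type, and which of the descriptions holds was not settled here: tgs1hypo and WT are the names in the library titles. About 100 pairs of testes went into each library, flies were raised at 25 °C and RNA was selected for poly(A). The labels number the replicates but do not say whether they came from separate crosses, so p-values measure the spread between these libraries only.

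Tgs1 is the methyltransferase that turns the monomethylated cap of spliceosomal snRNAs and of some other small RNAs into a trimethylguanosine cap. In Drosophila it shares a bicistronic mRNA with moi, a protein of the complex that protects telomeres. The testis holds germ cells at each step from stem cells and spermatogonia through primary spermatocytes, which transcribe most genes used later, to spermatids, which are nearly silent and rely on stored mRNA. Many of the spermatid genes are small, are expressed in no other tissue and have retroposed, intronless relatives elsewhere in the genome.

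The targeted locus was read first. The row of moi (3R, 18255530 to 18257677) spans the shared gene and held 3.81 and 2.71 FPKM in tgs1hypo testes, against 10.1 and 11.4 FPKM in WT testes, which is -1.47 on the log2 scale with a standard error (SE) of 0.16 (limma, adjusted p = 0.00039). Both tgs1hypo libraries were below both WT libraries, a separation seen in either direction in 80.4% of all tested genes. The libraries whose genotype label names a moi cDNA thus had the lower level in this row. Both genotype labels name a cDNA from this shared gene, so the row does not settle whether labels or titles hold. No value was read for tgs1 by itself, and reads of the native transcript and of either cDNA cannot be told apart in this row.

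Many of the genes that fell furthest have short introns, and the splice sites of some are shown first because much of what follows turns on whether a gene has introns at all. The study lists introns that it found retained in its own libraries, so these were picked by the study on the same RNA and are printed here for their letters and not as evidence. For each intron the site at its start (3 exon bases, then 6 intron bases) and the site at its end (20 intron bases, then 3 exon bases) are written in the direction of transcription, with the first or last 2 bases of the intron in capitals. All lie at introns of the same start and end in the release 6 annotation.
CG33286 start: ggaGTctgt
CG33286 end: accacctttgtatgccctAGatc
ACXA start: ttaGTgagt
ACXA end: atttttttgtatgcccaaAGatg
CG7634 start: gaaGTgggt
CG7634 end: gttataggccgtcttactAGgaa
ms(2)35Ci start: cacGTatgt
ms(2)35Ci end: gaaattccttctgaactcAGaat
Dic61B start: ttgGTagga
Dic61B end: agatagtatctattctgcAGgtt
Mst84Da start: gggGTatgt
Mst84Da end: cttttaatatgatttatcAGggc
janB start: ttcGTaagg
janB end: cctaatatacttggttttAGaaa
ARY start: aagGCaata
ARY end: aactaacttaatttgaacAGctt
The introns are 58 bases long in CG33286 (chr3L:20973868-20973925, minus strand), 60 in ACXA (chr2L:12923706-12923765, plus strand), 58 in CG7634 (chr3L:21566268-21566325, plus strand), 57 in ms(2)35Ci (chr2L:15292679-15292735, plus strand), 52 in Dic61B (chr3L:150297-150348, minus strand), 55 in Mst84Da (chr3R:7365972-7366026, plus strand), 58 in janB (chr3R:30038529-30038586, minus strand) and 59 in ARY (chrY:702654-702712, plus strand). The capitals at the intron start read GC in ARY and GT in the other 7.

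More genes fell than rose by at least 1 on the log2 scale, whereas with no limit of size more genes rose. A gene was called at an adjusted p under 0.05 (limma on log2(FPKM + 1), Benjamini-Hochberg over all 11343 genes) with a log2 change of at least 1 in size. By this rule 402 genes were higher in tgs1hypo testes, 3.54% of those tested, and 806 were lower, 7.11%. By the adjusted p alone 3893 were higher and 2655 lower. The falls were also the larger changes: 158 called genes fell by at least 2 on the log2 scale and 28 rose by as much, and past 3 there were 24 falls and 6 rises. The 4 libraries gave a small replicate spread, with a median SD of 0.0948 on the log2 scale, and correlated at 0.990 to 0.994 within a genotype and at 0.942 to 0.950 between genotypes. The median gene stood 0.11 higher in tgs1hypo testes as the values were deposited, and the calls were then 33.3% higher; with libraries scaled by the median of ratios that shift became -0.002 and 265 genes were called higher against 998 lower, a share of 20.98%.

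**Figure D1:**
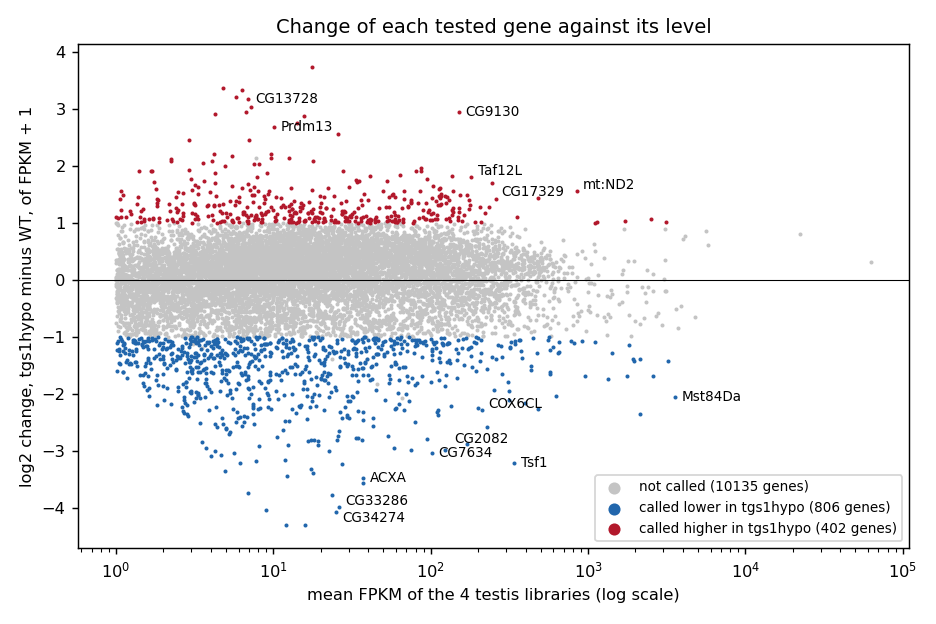
Each point is 1 of the 11343 tested genes, with its mean FPKM over the 4 testis libraries on a log axis and its log2 change, tgs1hypo minus WT, of FPKM + 1. The 806 genes called lower reach further from 0 than the 402 called higher. At a mean of 1000 FPKM and over 12 genes were called lower, Mst84Da among them, and 5 higher.

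Among protein-coding genes whose listed locus overlaps that of no other gene, the 12 deepest falls held a testis adenylyl cyclase, a dynein chain, a male sterility gene, a transferrin, a cuticle protein gene and 7 genes known by a number only. CG34274 on 3R held 1.87 and 1.89 FPKM in tgs1hypo testes, against 43.5 and 52.1 FPKM in WT testes. CG33286 on 3L held 2.22 and 2.17 FPKM in tgs1hypo testes, against 48.1 and 51.2 FPKM in WT testes. ACXA, a member of a testis family of adenylyl cyclases, held 5.30 and 5.20 FPKM in tgs1hypo testes, against 67.2 and 70.7 FPKM in WT testes. In all 3 the lowest WT library was more than 10 times the highest tgs1hypo library. Dic61B, a dynein intermediate chain, held 3.58 and 3.97 FPKM in tgs1hypo testes, against 34.3 and 34.8 FPKM in WT testes. Tsf1, a transferrin secreted into the haemolymph, held 69.6 and 61.2 FPKM in tgs1hypo testes, against 646 and 579 FPKM in WT testes. The log2 changes were -4.08 for CG34274 (SE 0.12), -3.99 for CG33286 (SE 0.10), -3.48 for ACXA (SE 0.08), -2.90 for Dic61B (SE 0.10) and -3.21 for Tsf1 (SE 0.09). The other 7 of these 12 falls were Cpr66Cb, which codes for a cuticle protein, CG43070, CG4477, CG7634, CG43203, ms(2)35Ci and CG6055, between -3.74 and -2.82.

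The 12 largest rises under the same condition were mostly of genes at low levels. CG13728 held 13.4 and 13.1 FPKM in tgs1hypo testes, against 0.786 and 0.386 FPKM in WT testes. Prdm13, a transcription factor known for its part in neural fate, held 17.2 and 19.2 FPKM in tgs1hypo testes, against 1.71 and 2.26 FPKM in WT testes. TTLL3A, a tubulin glycylase, held 5.63 and 5.61 FPKM in tgs1hypo testes, against 0.221 and 0.193 FPKM in WT testes. Each of these genes was near the lower limit of 1 FPKM, or under it, in WT testes and well above it in both tgs1hypo libraries. Mccc2, a mitochondrial carboxylase subunit of leucine breakdown, held 17.1 and 15.99 FPKM in tgs1hypo testes, against 3.27 and 2.39 FPKM in WT testes. MtnD, a metallothionein, also passed the test (log2 2.45, SE 0.54), but its tgs1hypo libraries held 20.3 and 5.30 FPKM and differed more from each other than the replicates of any gene above. The remaining 7 were CG5773, the neuropeptide gene CCHa1, Sfp79B and Sfp60F of the seminal fluid, kek3, CG13403 and CG7214, with log2 changes of 1.91 to 2.55.

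Abundant genes also moved in both directions. At 100 FPKM or more on average over the libraries, 59 genes were called higher and 113 lower. Of 1569 genes at 100 to 1000 FPKM 3.44% were called higher and 6.44% lower. These shares are near the 3.54% and 7.11% of all genes. Of 78 genes at 1000 FPKM and over 6.41% were called higher and 15.4% lower. After Tsf1, the largest falls among them were CG7634 (21.5 and 20.97 FPKM in tgs1hypo testes, against 171 and 192 FPKM in WT testes), CG2082, CG42560, CG42521 and CG31459, all between -3.04 and -2.37 on the log2 scale. The largest rise was CG9130, with 253 and 285 FPKM in tgs1hypo testes, against 33.8 and 34.0 FPKM in WT testes (log2 2.95, SE 0.07). CG9130 overlaps CG9133 on the same strand of 3L, and CG9133, looked at for that overlap after the values were seen, fell to 716 and 699 FPKM in tgs1hypo testes, against 1460 and 1549 FPKM in WT testes. How the reads of such a pair were divided is not given in the sources used here, so both values are uncertain. The other 5 large rises were CG10748, Taf12L, CG17329, the FAD synthetase paralogue Flad2 and the complex I paralogue ND-51L1, and of these only Taf12L has an annotated intron.

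**Figure D2:**
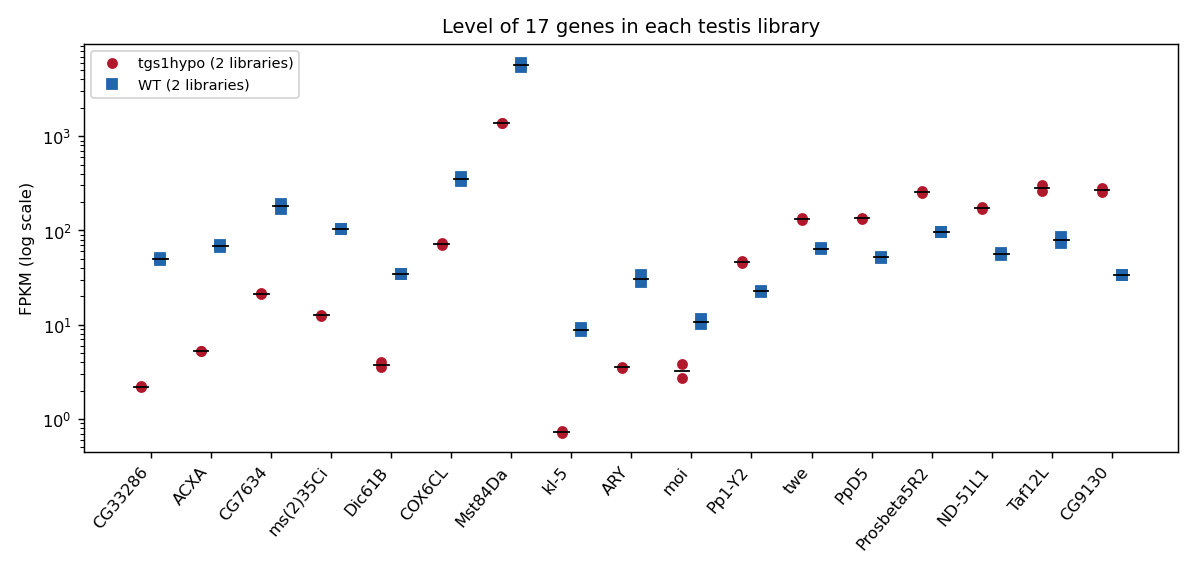
FPKM of 17 genes in each library on a log axis, with tgs1hypo libraries as circles on the left and WT libraries as squares on the right of each gene, and short lines at the 2 means. For every gene shown the 2 genotypes are separated by more than the gap between replicates, from CG33286 (2.22 and 2.17 FPKM against 48.1 and 51.2 FPKM) to CG9130 (253 and 285 FPKM against 33.8 and 34.0 FPKM).

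Genes with and without introns differed in how often they rose or fell. Of 1398 tested nuclear protein-coding genes with no annotated intron, 129 were called higher (9.23%) and 51 lower (3.65%). Of 8692 with introns, 206 were called higher (2.37%) and 500 lower (5.75%). The share called higher went down with each step in intron number, through 4.05% of genes with 1 intron, 2.30% with 2 or 3 and 1.64% with 4 to 9, to 0.865% of those with 10 or more. The share called lower was between 5.57% and 5.91% in those 4 classes. The median log2 change was 0.37 without introns and 0.11 with them, beside 0.14 for all 10090 nuclear protein-coding genes. Intronless genes thus made up 38.5% of the coding genes called higher, 9.26% of those called lower and 13.9% of those tested. Among the coding genes called higher at a mean of at least 100 FPKM, 32 of 51 had no intron.

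The difference in the share called higher was present in each class of level up to 1000 FPKM, in each class of length, and where no locus was shared. The shares called lower lay close together in some classes. They were 5.05% without introns and 5.26% with them at a mean of 1 to 10 FPKM. At 2000 exonic bases and over they were 3.79% and 4.16%. At a mean of 10 to 100 FPKM, 11.4% of 588 intronless genes and 2.42% of 3973 genes with introns were called higher. At 100 to 1000 FPKM, 8.08% of 396 intronless genes and 1.70% of 1117 with introns were called higher, and 1.77% of the intronless and 8.06% of the others were called lower. Above 1000 FPKM none of 64 nuclear coding genes was called higher by limma, and 12 were called lower, all of them with introns. For genes with under 1000 exonic bases the shares called lower were 5.70% without introns and 11.8% with them. Among genes that shared no locus 9.43% of 742 intronless genes were called higher. With libraries scaled by the median of ratios the shares called higher were 6.15% without introns and 1.46% with them, so the order of the classes was the same under that scaling.

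The size of the smallest intron went with the falls as well. Where it was 55 bases or less, 204 of 2267 genes were called lower, a share of 8.999%, against 4.53% at 56 to 60 bases, 4.45% at 61 to 70 bases and 4.47% at 71 to 100 bases. Genes with a very small intron tend to have several, and among genes with 1 intron the corresponding shares were 8.06%, 4.45%, 7.47% and 4.44%, which do not run in order. Short transcripts fell more often than long ones: 15.98% of genes with under 500 exonic bases and 3.10% of those with 4000 or more were called lower. The 12 abundant genes that fell above 1000 FPKM, named here after their values were seen, were CG15219, CG17376, CG17377, CG30430, CG31639, CG31820, CG42688, CG43816, CG46059, CG9133, Mst84Da and Mst84Dc. Their smallest introns were 48 to 72 bases long. CG17376 gave 1231 and 1205 FPKM in tgs1hypo testes, against 3795 and 4074 FPKM in WT testes, and its neighbour CG17377 gave 1068 and 1039 FPKM in tgs1hypo testes, against 2689 and 2866 FPKM in WT testes.

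The chromosomes differed, with the X and the Y at the ends. On the X 57 of 1743 genes were called higher (3.27%) and 43 lower (2.47%), against 3.53% higher and 7.81% lower on the 4 large autosomal arms. The median log2 change was 0.20 on the X and 0.10 on the autosomal arms. The shortage of falls on the X appeared in genes with introns (2.18% of 1375, against 6.26% of 7237 on the autosomal arms) and in intronless genes (1.75% of 228, against 4.03% of 1167). Among the autosomal arms 2L had the largest share of falls, 9.32%, and 3R the smallest, 7.01%. Chromosome 4, which is small, had 5 falls and 2 rises among 74 genes. JYalpha, a sodium pump subunit needed for sperm motility and placed on chromosome 4, held 15.3 and 15.2 FPKM in tgs1hypo testes, against 42.4 and 40.1 FPKM in WT testes.

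On the Y 17 of 30 tested genes were called lower and 2 higher. The Y carries few genes, most of them needed only for sperm, and several are among the largest of the genome because of their introns. Of a list of 13 Y genes, 8 fell: ARY, kl-5, CCY, WDY, ORY, Ppr-Y, kl-2 and Mst77Y-4. Mst77Y-7 and Mst77Y-13, outside that list and looked at after their values were seen, fell too, by 1.67 and 1.44 on the log2 scale. Mst77Y-13 lay in a run of 4 neighbouring genes called lower, and Mst77Y-4 in a run of 3. How reads were divided between the Mst77Y copies is not given in the sources used here. The 17 falls may therefore not be 17 separate measurements. ARY, an aldehyde reductase, held 3.55 and 3.51 FPKM in tgs1hypo testes, against 28.2 and 33.5 FPKM in WT testes. kl-5, a heavy chain of the sperm tail dynein, held 0.737 and 0.701 FPKM in tgs1hypo testes, against 8.51 and 9.26 FPKM in WT testes. The 2 Y genes called higher, Pp1-Y1 and Pp1-Y2, code for phosphatases and have no intron. Pp1-Y2 held 44.9 and 47.4 FPKM in tgs1hypo testes, against 22.3 and 22.8 FPKM in WT testes, and stood at the limit of the call (log2 1.003, SE 0.07), which it missed without WT replicate 1, without tgs1hypo replicate 2 and under both other scalings. kl-3 (log2 -0.67, SE 0.14), PRY (0.22, SE 0.15) and FDY (0.82, SE 0.13) have introns and were not called.

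With all libraries, the 6 calls among the 14 tested genes of the mitochondrial genome were all higher: mt:ND1, mt:ND2, mt:ND3, mt:ND4, mt:ND5 and mt:ATPase6, which code for subunits of complex I and of the ATP synthase. mt:ND2 held 1177 and 1347 FPKM in tgs1hypo testes, against 463 and 392 FPKM in WT testes (log2 1.56, SE 0.10). The other 5 stood between 1.01 and 1.07 and the median of the 14 was 0.83. Only mt:ND2 was called once libraries were scaled by the median of ratios, under which the median was 0.70, and with each library left out 4 or 5 were called higher, mt:ND3 being lost without tgs1hypo replicate 2 and without WT replicate 1. Without tgs1hypo replicate 1, 1 mitochondrial gene was called lower. mt:ND6 had 171 FPKM in 1 tgs1hypo library and 11.5 FPKM in the other, against 91.0 and 84.6 FPKM in WT testes, and was not called.

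**Figure D3:**
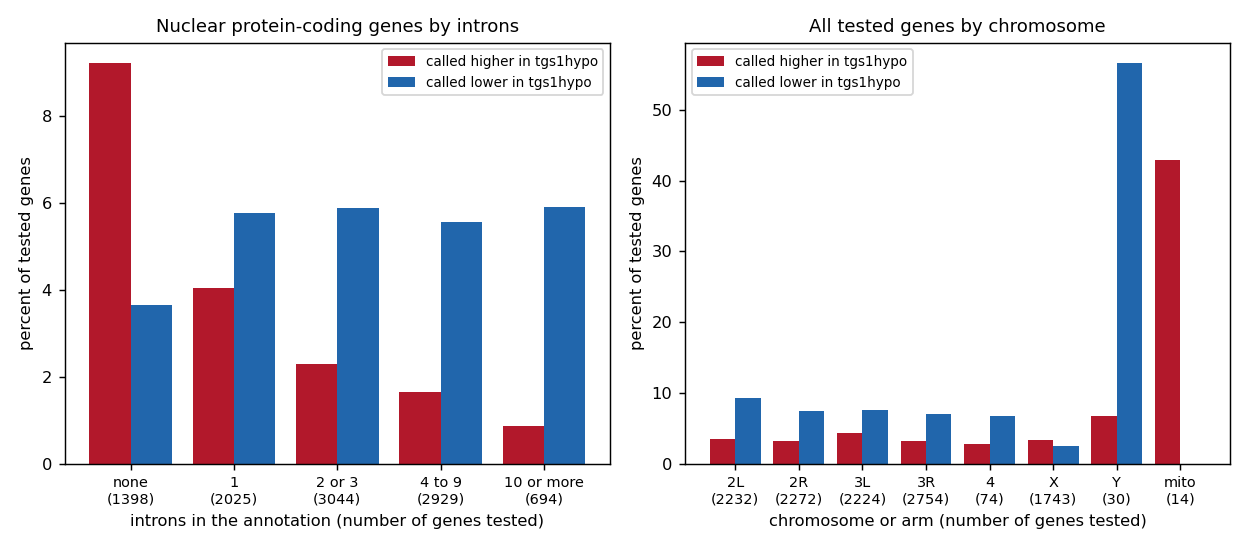
Bars show the percent of tested genes called higher (red) and lower (blue) in tgs1hypo testes, by the number of annotated introns of nuclear protein-coding genes (left) and by chromosome for all tested genes (right), with the number of genes under each pair. The red bars go down from 9.23% without introns to 0.865% at 10 or more, and on the right the X has the smallest blue bar of the nuclear chromosomes and the Y the largest.

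Noncoding RNAs fell far more often than coding genes. Of 949 tested genes annotated as ncRNA, 244 were called lower (25.7%) and 46 higher (4.85%), with a median log2 change of -0.42. They made up 30.3% of all genes called lower and 8.37% of those tested. The share lower was 27.5% of 705 lncRNA genes and 21.5% of 233 antisense genes, and it was 26.4% among the 425 that shared no locus. It was close to the same at a mean of 1 to 10 FPKM (25.9%) and of 10 to 100 FPKM (25.6%). As for coding genes it was larger with introns (37.5% of 355) than without (18.7% of 594), and on the X 9 of 82 were called lower. lncRNA:CR44105 on 2R held 0.198 and 0.0700 FPKM in tgs1hypo testes, against 17.6 and 17.8 FPKM in WT testes, and lncRNA:CR44308 on 2L held 2.54 and 2.15 FPKM in tgs1hypo testes, against 29.5 and 35.3 FPKM in WT testes. In both the genotypes lay far apart, although the first has no intron.

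The snRNA genes moved the other way. These are the small RNAs whose cap Tgs1 modifies, and since the libraries were selected for poly(A) their values show only copies that passed that selection. All 12 listed were tested, and 6 were called higher (50%, beside 3.54% of all genes) and none lower by limma. The 6 were U11, U12 and the U1 copies 21D, 82Eb, 95Ca and 95Cb, and these copies are not separate measurements. snRNA:U11, a part of the minor spliceosome, held 14.8 and 10.5 FPKM in tgs1hypo testes, against 1.25 and 0.338 FPKM in WT testes. snRNA:U1:21D held 7.54 and 11.6 FPKM in tgs1hypo testes and was listed at 0 in both WT libraries. It thus passed the limit of 1 FPKM through its tgs1hypo libraries alone. snRNA:U12 held 30.7 and 27.4 FPKM in tgs1hypo testes, against 6.96 and 13.6 FPKM in WT testes. The 5 U2 copies lay between -0.13 and 0.64 on the log2 scale with none called. The U1 copies are nearly identical, so the sharing of reads between them is uncertain, and the call of snRNA:U1:95Cb, which held 3.76 and 0.660 FPKM in tgs1hypo testes, was lost without tgs1hypo replicate 1 and without either WT replicate. The median of the 12 was 1.03, against 0.47 without tgs1hypo replicate 1, 0.60 without WT replicate 1 and 0.43 with unshared loci only.

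Genes of the successive germ cell stages differed in direction. In spermatogonial and stem cell genes 1 of 15 tested was called higher and none lower by limma, and the median log2 change was 0.31. The gene called was tut, a partner of bam in ending the mitotic divisions, with 29.2 and 28.5 FPKM in tgs1hypo testes, against 13.5 and 13.6 FPKM in WT testes. Of 17 testis-specific transcription factor genes of the meiotic arrest class, 3 were called higher (17.6%, beside 3.54% of all genes) and none lower. Taf12L, a testis TAF, held 301 and 260 FPKM in tgs1hypo testes, against 86.0 and 73.4 FPKM in WT testes, and comr and nht, both intronless, stood at 1.196 (SE 0.17) and 1.05 (SE 0.10). The relatives can and sa were at -0.91 and -0.98, and were not called. The call of comr was lost without WT replicate 2. In the meiotic cell cycle list twe, the Cdc25 phosphatase that starts meiosis, held 137 and 130 FPKM in tgs1hypo testes, against 63.9 and 64.6 FPKM in WT testes, and fzy, which activates the anaphase promoting complex, was higher by 1.03 (SE 0.07). eIF4E3, a cap-binding protein of the testis, was lower in the same list, with 120 and 123 FPKM in tgs1hypo testes, against 291 and 300 FPKM in WT testes. The calls of tut, twe, fzy and nht were lost with libraries scaled by the median of ratios and by quantile normalization, that of fzy also without tgs1hypo replicate 1 and that of nht without tgs1hypo replicate 2 and without WT replicate 2.

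Among spermatid genes the calls were all falls, and all in genes with introns. Of 41 tested spermatid differentiation genes 11 were called lower (26.8%, beside 7.11% of all genes) and none higher by limma, with 7 above and 27 below 0 at an unadjusted p under 0.05. The 9 intronless members had no call in either direction and a median of 0.12, while the others had a median of -0.72. ms(2)35Ci, a male sterility gene, held 12.8 and 12.4 FPKM in tgs1hypo testes, against 104.1 and 105 FPKM in WT testes. Mst84Da, a short Cys-Gly-Pro protein of the sperm tail, held 1374 and 1366 FPKM in tgs1hypo testes, against 5419 and 6048 FPKM in WT testes, and janB held 245 and 245 FPKM in tgs1hypo testes, against 947 and 1068 FPKM in WT testes. Mst87F, the most abundant member, held 3755 and 3710 FPKM in tgs1hypo testes, against 5587 and 6128 FPKM in WT testes, a log2 change of -0.65 (SE 0.10). The 9 protamine-type genes had no call by limma, with 2 above and 5 below 0 at an unadjusted p under 0.05, and a median of -0.37, and Mst77F, the most abundant of them, was at 0.34 (SE 0.07). By microscopy the study found a meiotic arrest in tgs1hypo testes, which lacked post-meiotic cells. Because whole testes were sequenced, these FPKM alone cannot tell fewer spermatids from less mRNA per spermatid. Of the markers, the 18 spermatid genes summed to 17332 to 17927 FPKM in tgs1hypo testes and 27873 to 30981 FPKM in WT testes. Their median was -0.52, with 2 called lower and 0 higher. The 11 spermatocyte genes summed to 658 to 667 FPKM in tgs1hypo testes and 667 to 671 FPKM in WT testes. Of these 6 were above and 5 below 0, with 3 called higher (3.54% of all genes were) and 0 lower. The 8 spermatogonial genes summed to 124 to 128 FPKM in tgs1hypo testes and 85.1 to 88.2 FPKM in WT testes, with 1 called higher and 0 lower. The 11 markers of somatic cyst, hub and sheath cells summed to 135 to 155 FPKM in tgs1hypo testes and 230 to 238 FPKM in WT testes. Of the 10 tested 7 were below 0, with a median of -0.55 and 3 called lower (7.11% of all genes were). They include the muscle genes Mhc and Act57B. Act57B held 59.0 and 71.3 FPKM in tgs1hypo testes, against 136 and 133 FPKM in WT testes. The wider list of hub and cyst cell genes had 10 above and 9 below 0. Its sum was 140 to 146 FPKM in tgs1hypo testes and 137 to 152 FPKM in WT testes. The part of these cell types in the other results was not tested.

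Lists of sperm tail proteins differed in their calls. Of 25 axonemal dynein genes tested, 4 were called lower, kl-5, Dhc36C, kl-2 and Dnah3, and none higher. The share called lower was larger than the 7.11% of all genes. All 4 are heavy chains, but the list did not hold the intermediate chain Dic61B, which was called lower at -2.90 (SE 0.10). Dnah3 held 19.4 and 21.2 FPKM in tgs1hypo testes, against 42.5 and 47.9 FPKM in WT testes. The cilium and centriole list had 1 call among 27 genes, ana3, a centriole protein with 33.1 and 34.6 FPKM in tgs1hypo testes, against 11.5 and 9.44 FPKM in WT testes. The ACX family, added to the lists after its values were seen, had 3 of 5 members lower. ACXA, ACXB and ACXC, which lie side by side on 2L, stood at -3.48, -2.40 and -1.76, and ACXC fell to 29.4 and 27.2 FPKM in tgs1hypo testes, against 98.4 and 97.9 FPKM in WT testes. Their relatives ACXE and ACXD were low in both genotypes and stood at -0.41 (SE 0.13) and -0.12 (SE 0.16). All 5 have the same number of annotated introns, 11.

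Several families hold copies used in the testis that differ in introns, and 3 such families are described next. In other lists the intronless members had the lower median, as for heat shock genes (-0.73 without introns and 0.24 with them) and calmodulin-type genes (-0.06 and 0.28). In the proteasome, which degrades ubiquitinated proteins and has testis versions of many subunits, none of 32 general genes was called by limma, and the median of that list was 0.35, with 25 above 0 and 0 below at an unadjusted p under 0.05. Of its 15 testis paralogues 5 have no intron and had a median of 0.96, while the 10 with introns had a median of 0.02. Prosbeta5R2, intronless, held 261 and 249 FPKM in tgs1hypo testes, against 95.5 and 97.3 FPKM in WT testes. Prosbeta5R1, the other copy of the same subunit, has 1 intron and held 89.4 and 84.8 FPKM in tgs1hypo testes, against 195 and 210 FPKM in WT testes. Prosalpha4T1, intronless, stood at 1.77 (SE 0.06) and its sister Prosalpha4T2, with 2 introns, at -0.16 (SE 0.06).

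Protein phosphatases of type 1 and their relatives also had intronless members with a higher median. Of 6 intronless members 5 were called higher, PpD5, Pp1-Y1, PpN58A, PpD6 and Pp1-Y2, and the sixth, PpY-55A, was at 0.32 (SE 0.08). PpD5 held 133 and 136 FPKM in tgs1hypo testes, against 51.5 and 52.3 FPKM in WT testes, and PpN58A held 143 and 136 FPKM in tgs1hypo testes, against 61.5 and 63.2 FPKM in WT testes. The 7 with introns, which act in all tissues, had no call and lay between -0.33 and 0.59. PpD6 (1.02, SE 0.07) was not called under either other scaling or without WT replicate 1. Among 50 small GTPase genes the 10 intronless had a median of 0.72 and the others 0.22, with 1 call, RabX2, at 65.0 and 64.7 FPKM in tgs1hypo testes, against 19.8 and 15.4 FPKM in WT testes.

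The testis paralogues of the respiratory chain went both ways. Of 24 tested 2 were called higher (8.33%, beside 3.54% of all genes) and 4 lower (16.7%, beside 7.11%). All 4 that fell have introns. Of these COX6CL, COX7CL and COX4L belong to cytochrome c oxidase and UQCR-6.4L to the cytochrome bc1 complex. COX6CL held 73.3 and 69.4 FPKM in tgs1hypo testes, against 335 and 366 FPKM in WT testes (log2 -2.28, SE 0.07), and COX4L held 226 and 208 FPKM in tgs1hypo testes, against 616 and 686 FPKM in WT testes. The 2 called higher were paralogues of complex I subunits. ND-51L1, intronless, held 178 and 170 FPKM in tgs1hypo testes, against 57.4 and 54.4 FPKM in WT testes, and ND-20L, with 1 intron, stood at 1.26 (SE 0.06), so a paralogue with an intron also rose. The 71 general nuclear subunits had a median of 0.31 and 1 call, ND-B8, lower by 1.75 (SE 0.19). Of the genes for mitochondrial protein import, Tim17a2 and Tim17b1, testis versions of an inner membrane channel, were called higher at 1.47 and 1.27 although both have introns, and the intronless Tim17b2 was at 0.85.

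**Figure D4:**
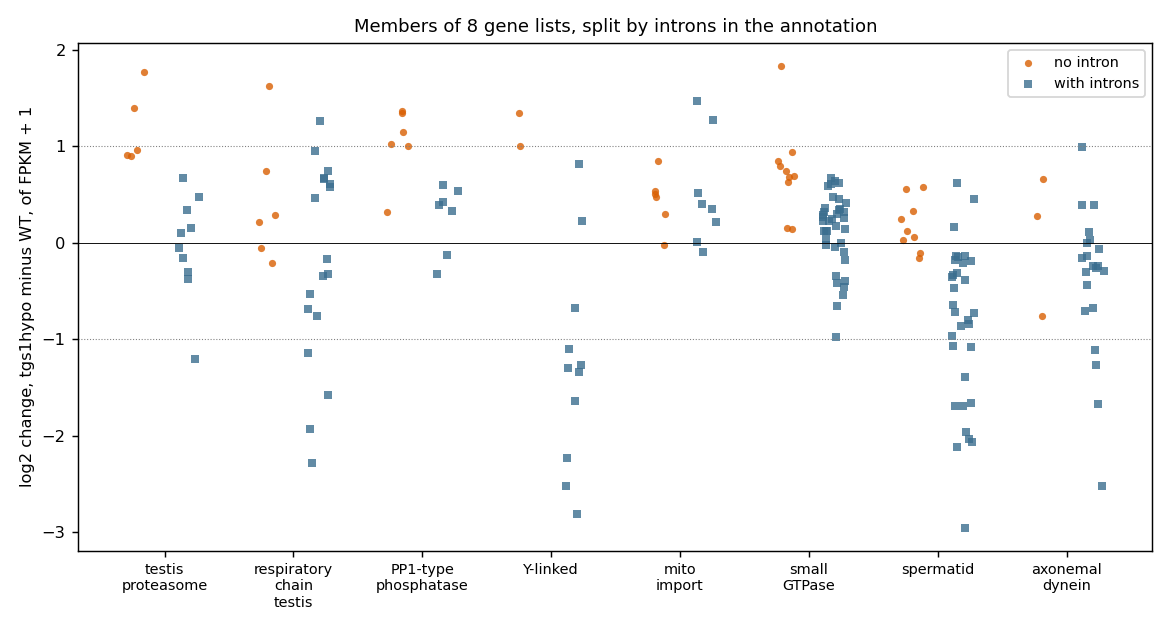
Log2 change, tgs1hypo minus WT, of FPKM + 1 for the tested members of 8 gene lists, with intronless genes as circles on the left of each list and genes with introns as squares on the right; dotted lines mark 1 and -1. In each of the 8 lists the median circle lies above the median square, and every spermatid gene below -1 is a square. Some lists not plotted go the other way. Examples are heat shock genes (median -0.73 without introns and 0.24 with them) and RNA exosome and nonsense-mediated decay genes (-0.01 and 0.36).

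The Stellate genes, a tandem X-linked family normally silenced in males by piRNAs, rose together. Of 8 tested 7 were called higher and the eighth, Ste:CG33236, was at 0.97 (SE 0.15). Ste12DOR, the most abundant, held 59.5 and 46.4 FPKM in tgs1hypo testes, against 15.97 and 14.496 FPKM in WT testes. The others held 3.49 to 13.3 FPKM in tgs1hypo testes and 0.836 to 3.53 FPKM in WT testes. The genotypes overlapped in none of the 8, and 80.4% of all tested genes had no overlap either. The copies are nearly identical, so they are not 8 separate measurements. In the piRNA pathway, which silences them, 1 of 22 genes was called higher (4.55%, near the 3.54% of all genes) and none lower. The gene was Hen1, which methylates the ends of piRNAs. It held 51.3 and 47.6 FPKM in tgs1hypo testes, against 22.97 and 22.4 FPKM in WT testes. The 7 Stellate genes called higher formed the longest run of neighbouring tested genes called in the same direction. The longest runs of falls held 4 genes, and 1 of the 4 such runs was a set of Hsp70 genes.

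Several heat shock genes were lower. Of 36 heat shock and chaperone genes 9 were called lower (25.0%, beside 7.11% of all genes) and none higher by limma (15 above 0 at an unadjusted p under 0.05). The median of the list was 0.02, however, and turned below 0 with libraries scaled by the median of ratios. The 9 were 6 Hsp70 copies, Hsc70-1, l(2)efl and Hsp22. Hsp70Bb held 37.3 and 28.9 FPKM in tgs1hypo testes, against 93.9 and 72.4 FPKM in WT testes, and the 6 copies, which have no intron and are nearly identical, share reads. Hsc70-1 held 36.5 and 37.9 FPKM in tgs1hypo testes, against 176 and 192 FPKM in WT testes. Hsp22 held 73.1 and 60.8 FPKM in tgs1hypo testes, against 268 and 120 FPKM in WT testes, so its WT libraries differed widely, and its call was lost without WT replicate 1.

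Genes for general RNA handling were slightly higher with hardly a call. All 30 Sm, Lsm and core snRNP protein genes were above 0, with a median of 0.57 and none called by limma at the limit of size (26 at an unadjusted p under 0.05), and the most abundant, Sf3b6, held 138 and 144 FPKM in tgs1hypo testes, against 80.9 and 84.6 FPKM in WT testes. Genes of snRNP assembly and cap binding had a median of 0.35 over 17, the Integrator 0.32 over 14, cytoplasmic ribosomal proteins 0.27 over 91, mitochondrial ribosomal proteins 0.50 over 75 and translation factors 0.30 over 53, beside 0.11 for all genes. Among these lists the genes called were RpL22-like, a germline ribosomal paralogue at 1.06 (SE 0.07), the intronless mRpS22 at 1.26 (SE 0.08) and eIF4E3. Mtr4, the helicase of the nuclear exosome, was higher by 1.05 (SE 0.11), and bru1, an RNA-binding regulator of splicing and translation, held 155 and 164 FPKM in tgs1hypo testes, against 397 and 417 FPKM in WT testes. The calls of RpL22-like and Mtr4 were lost under both other scalings, both were lost without WT replicate 2, and Mtr4 also without tgs1hypo replicate 2.

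Transporters and metabolic families gave mixed calls. Of 57 solute carrier genes 7 were lower (12.3%) and 1 higher (1.75%), beside 7.11% and 3.54% of all genes. The list median was 0.08 and turned below 0 under the median of ratios. Indy-2, a relative of the citrate transporter Indy, held 111 and 110 FPKM in tgs1hypo testes, against 288 and 309 FPKM in WT testes, while Zip89B, a zinc transporter, held 4.47 and 3.55 FPKM in tgs1hypo testes, against 0.674 and 0.975 FPKM in WT testes. Among 26 mitochondrial carriers Tyler fell by 2.31 (SE 0.12) and the glutamate carrier GC2 held 54.2 and 50.8 FPKM in tgs1hypo testes, against 189 and 199 FPKM in WT testes. In central metabolism ScsbetaA, a succinyl-CoA synthetase subunit, fell by 1.12 and Gpdh3 by 1.06, both with an SE of 0.07 or less, among 39 genes of which none was called higher by limma (11 above 0 at an unadjusted p under 0.05). The 48 cytochrome P450 genes had 3 rises (6.25%) and 4 falls (8.33%), beside 3.54% and 7.11% of all genes, with Cyp12d1-d among the rises (10.7 and 7.10 FPKM in tgs1hypo testes, against 2.25 and 1.93 FPKM in WT testes) and Cyp4ad1 among the falls (2.95 and 3.10 FPKM in tgs1hypo testes, against 14.3 and 16.5 FPKM in WT testes).

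Genes of tissues that surround the testis or can come along with it mostly had values below 0, and most were not called. Of 60 accessory gland and seminal fluid genes 53 were below 0, with a median of -0.67, 4 were called lower (6.67%, beside 7.11% of all genes) and 3 higher (3.54% of all genes were), so the calls were near the background. Their summed level was 13172 to 13639 FPKM in tgs1hypo testes and 19343 to 19838 FPKM in WT testes. Acp54A1, the largest fall among them, held 92.4 and 216 FPKM in tgs1hypo testes, against 569 and 711 FPKM in WT testes. Of 26 muscle sarcomere genes 25 were below 0, with a median of -0.62. By limma 4 of them were called lower (15.4%, beside 7.11% of all genes) and none higher. Their sum was 648 to 699 FPKM in tgs1hypo testes and 1002 to 1019 FPKM in WT testes. Act57B, a muscle actin, held 59.0 and 71.3 FPKM in tgs1hypo testes, against 136 and 133 FPKM in WT testes, a call lost without tgs1hypo replicate 1. Of the other muscle calls, Mlp60A was lost without tgs1hypo replicate 1 and without WT replicate 2, and TpnC73F without tgs1hypo replicate 2 and without WT replicate 1. The muscle sheath belongs to the dissected testis, whereas accessory gland is a separate organ, and the part of either in the changes of other genes was not tested. Of the fat body markers Yp1, Yp2 and Fbp1 were under 1 FPKM in every library. In the wider fat body and haemolymph list 7 of 9 tested genes were below 0, with a median of -0.22 (-1.35 at a mean of at least 5 FPKM and -0.02 without WT replicate 1), and Tsf1 and TotA were called lower, TotA not without tgs1hypo replicate 1 or WT replicate 1. The list summed to 89.4 to 96.2 FPKM in tgs1hypo testes and 606 to 678 FPKM in WT testes, most of it Tsf1. Of 19 hub and cyst cell genes upd1, the signal of the stem cell niche, fell to 2.63 and 2.45 FPKM in tgs1hypo testes, against 9.05 and 9.13 FPKM in WT testes, and esg was lower by 1.09 (SE 0.15, not called under quantile normalization), with a list median of 0.01 whose sign changed under both other scalings.

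**Figure D5:**
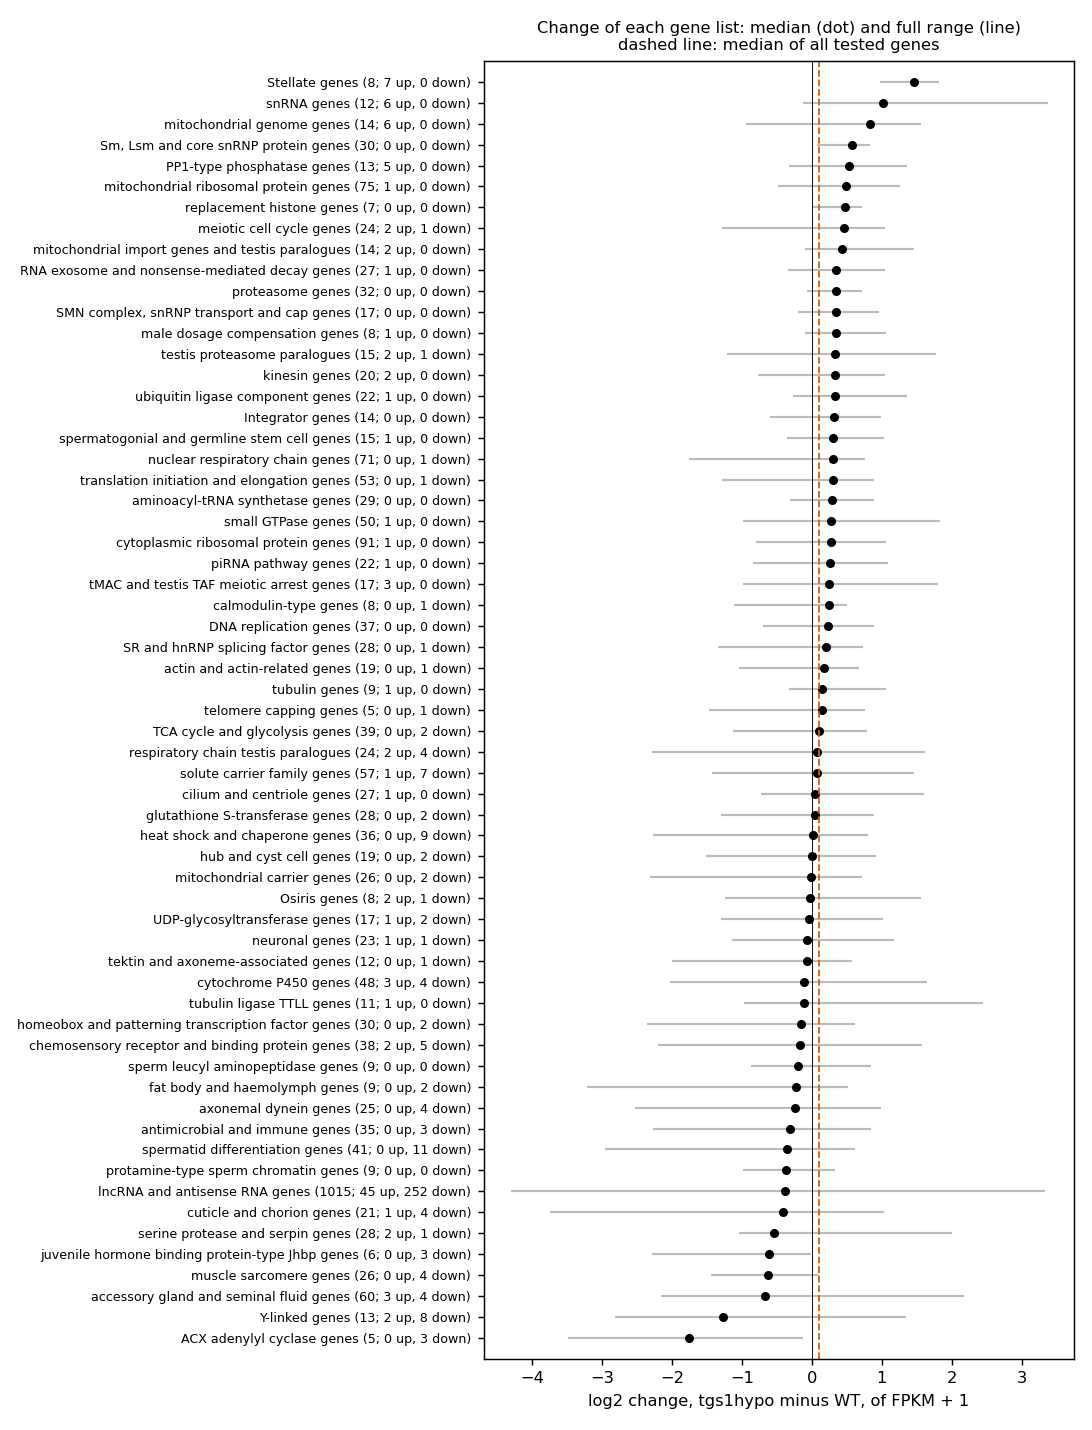
For each gene list of at least 5 tested genes the dot gives the median log2 change, tgs1hypo minus WT, of FPKM + 1, and the line its full range; the dashed line is the median of all tested genes at 0.11, and brackets give genes tested and called. Stellate, snRNA and mitochondrial genome genes stand at the top with all libraries (the snRNA median is 0.47 without tgs1hypo replicate 1), and ACX, Y-linked, accessory gland and muscle genes at the bottom.

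Where genes overlap, opposite calls also occurred. Of the 21 overlapping pairs on opposite strands in which both genes were called, 11 had opposite directions, and of 19 such pairs on the same strand 8 did. The clearest was MstProx, a Toll-type receptor gene that overlaps Mst84Da on the other strand of 3R. MstProx held 33.7 and 33.5 FPKM in tgs1hypo testes, against 1.72 and 1.47 FPKM in WT testes, the largest log2 rise of any gene named here, while Mst84Da fell. Whether counting used the strand is not given in the sources used here, and without it the reads of such partners cannot be told apart.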

How the data were processed

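Total RNA of about 100 pairs of adult testes per library was selected for poly(A) and sequenced (2 tgs1hypo and 2 WT libraries). According to the study's methods, the authors mapped reads with HISAT2 to the FlyBase release 6 genome and named featureCounts and DESeq2 for expression levels. The deposited values are FPKM; the tool that gave them and the handling of strand are not given in the sources used here. Read depth is unknown, so no counting interval was made; columns summed to 792501 to 825832 FPKM. Larval libraries were not used here.

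FPKM were tested as log2(FPKM + 1) with limma 3.58.1 in R 4.3.3 (mean-variance trend, Benjamini-Hochberg over 11343 genes with a mean of at least 1), and fold changes on this scale understate those of low genes. An exact permutation test of 2 against 2 libraries cannot go below p = 0.333. The fit was tested on simulated data. Names, introns (the most in any transcript), lengths and biotypes came from Ensembl 115 (BDGP6, version 54), which held 15385 of the 15612 identifiers; 5424 tested genes had a listed locus that overlapped another. Splice sites were copied from the study's intron list, of which only a part was at hand.

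The genes named were moi, from each list up to 4 called members with the largest change and the most abundant one (and relatives where members differ), the 12 largest falls and rises among coding genes with an unshared locus, the 6 largest at a mean of at least 100 FPKM and the 3 largest on each chromosome, where genotypes did not overlap; genes outside this are said to be chosen after their values were seen. The lists and the comparison were chosen with earlier results of these data known. Alternatives were another pseudocount, other filters, scalings and limits, no trend, a replicate block, unshared loci only and each library left out.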

Additional observations from a re-analysis of the deposited data

How the results depend on the processing

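The 402 rises and 806 falls kept within 1.5 times under a pseudocount of 0.1 (554 and 1047), no filter (405 and 847), quantile normalization (368 and 823), no mean-variance trend (397 and 804) and an adjusted p under 0.01 (395 and 796). With a mean of at least 5 FPKM (309 and 536 of 8363 genes) the falls moved by more, and with unshared loci only (214 and 426 of 5919) both did; fewer genes were tested there. With the adjusted p alone (3893 and 2655) rises outnumbered falls. Scaling by the median of ratios gave 265 and 998. Leaving out each library gave 381 to 474 rises and 780 to 913 falls, with 1051 to 1116 of the 1208 calls shared; the lone library of its genotype was then assumed to vary like the other pair. The replicate numbers share no batch in the labels, the 2 genotypes' replicate differences correlated at 0.13, and a replicate block gave 403 and 812 calls, with all 1208 calls kept.

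Of 221 named genes, 18 changed side of the limit under the median of ratios and 16 under quantile normalization, all of them losses of the call, and 8 to 11 lost it with each library left out. Directions turned for RpL41 (-0.028 under the median of ratios; -0.048 to 0.25 with each library left out), Obp44a (0.28) and Jhbp5 (0.24) under quantile normalization, and, with each library left out, His2B:CG33868 (-0.23 to 0.18) and Tektin-A (-0.072 to 0.061). Of 63 list medians 43 moved by more than the replicate spread under the median of ratios, cytoplasmic ribosomal proteins to 0.15, translation factors to 0.17 and spermatogonial genes to 0.19 among them. List medians changed sign for 7 lists under the median of ratios, among them solute carriers, respiratory testis paralogues, heat shock genes and hub and cyst cell genes, and for 4 under quantile normalization. With 2 libraries a group and no read depth, small changes of genes near 1 FPKM are the least certain.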
